A study of Mus musculus with 25 samples.

Results

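The genes described here are the 10 that encode the measured AMPA and NMDA receptor subunits, Gria1 to Gria4, Grin1, Grin2a to Grin2d and Grin3a, taken by symbol from tables that each list 24411 genes. Nuclei were stained for NeuN, a nuclear protein of neurons, and for DNA with Hoechst, and double-positive nuclei were sorted from the hippocampus of male C57BL/6 mice for RNA-seq. The aging experiment compared 3 young (3 months) with 2 aged (18 months) wild-type libraries, each from 1 mouse. The overexpression experiment compared 7 libraries labelled Ftl1 OE with 5 control libraries of young mice (3 months), in which a lentivirus with the neuronal synapsin promoter carried either Ftl1, the ferritin light chain gene, with GFP or GFP alone. The knockdown experiment compared 4 libraries labelled Ftl1 KD with 4 control libraries of aged mice (18 months), which received a lentivirus with a short hairpin RNA against Ftl1 or against luciferase. The virus was injected on both sides into CA1 and the dentate gyrus, and the sort was on NeuN rather than on the virus, so that nuclei without virus could enter a library. Each table was normalized separately. A normalized count is the number of reads after division by a size factor that corrects for depth, and it can be compared between libraries of 1 table only. In the injected groups no label says how many mice a library held, so p-values measure the spread between libraries.

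AMPA and NMDA receptors are ion channels opened by glutamate, the main excitatory transmitter of the hippocampus, and each channel is built from subunits of its own family. AMPA receptors carry most of the fast current, and channels that contain the edited GluA2 subunit, encoded by Gria2, let little calcium through. NMDA receptors combine the obligatory GluN1 subunit of Grin1 with GluN2 or GluN3 subunits, admit calcium, and are required for many forms of synaptic plasticity. GluN2B predominates early in development and GluN2A joins it as the forebrain matures.

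The families differ at a position of the channel pore that governs calcium and magnesium, so the codon at this position and the bases around it are shown for the 4 AMPA subunits and for Grin1 and Grin2a. Capitals mark the codon, which is the Q/R site in AMPA subunits and the N site in NMDA subunits, and the bases were read from the mm10 genome (GRCm38) with GENCODE M21 transcripts, on the strand of the gene.
Gria1: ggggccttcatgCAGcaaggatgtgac
Gria2: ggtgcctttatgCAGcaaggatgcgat
Gria3: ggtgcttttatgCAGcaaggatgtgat
Gria4: ggtgcctttatgCAAcaaggatgtgac
Grin1: ggcgtcctgctcAACtctggcattggg
Grin2a: ggcctggtcttcAACaattctgtgccc
The Gria2 codon lies at chr3:80706911-80706913 on the minus strand, in exon 11 of the transcript used. The genome encodes glutamine there as in the other AMPA subunits, and RNA editing recodes it to arginine. The Gria1 codon lies at chr11:57243094-57243096 on the plus strand, and the Grin1 codon at chr2:25297386-25297388 on the minus strand. The gene counts analysed here do not report editing.

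Libraries held 7969282 to 9537872 reads in the aging, 9943996 to 17034325 in the overexpression and 48902 to 358560 in the knockdown experiment. Depth was unequal between the knockdown groups, with 68092 to 358560 reads in controls and 48902 to 97104 in libraries labelled Ftl1 KD. Ftl1, the gene the viruses were meant to change, did not follow the labels. In the knockdown experiment its normalized count was 43.8 ± 13.7 (SD, n = 4) in controls and 118 ± 15.01 (n = 4) in libraries labelled Ftl1 KD, a log2 fold change of 1.47 (SE 0.25, limma adjusted p = 0.000223), and all 4 lay above every control. In the overexpression experiment it was 11515 ± 9579 (n = 5) in controls and 5968 ± 1251 (n = 7) in libraries labelled Ftl1 OE. The groups overlapped, with a log2 fold change of -0.67 (SE 0.34, limma adjusted p = 0.681). Directions below are therefore those of the labelled libraries. These Ftl1 values are of nuclear RNA. By RNA-seq, the paper lists Ftl1 among genes lower after overexpression and higher after knockdown and after knockout. The paper measured hippocampal FTL1 protein by western blot and reported it higher after overexpression and lower after knockdown. Pre-ribosomal RNA (Rn45s) took 31.9 to 55.3% of the reads in the knockdown controls and 30.3 to 34.5% in the libraries labelled Ftl1 KD. The neuronal markers Syt1 and Snap25 were detected in all libraries, and summed levels of 5 neuron markers overlapped between the groups of each experiment. In the overexpression experiment, the control libraries 9905 and 9926 stood apart from the other controls in Grin1, and 9905 also in Ftl1, at 28310. The nuclear RNA Malat1 was at 23359 and 32204 normalized counts in these 2, and at 76579 to 185236 in the other controls. Snap25 was at 4453 and 3190 against 9904.9 to 27889, and Slc17a7 at 37830 and 30812 against 13334 to 17442. Syt1 lay within the range of the other controls. These 2 libraries had 12281 and 13495 genes detected, and the other controls 13924 to 15188.

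Per kilobase of exon, Gria1 and Gria2 were the highest of the 10 genes in young uninjected nuclei. Their levels per kilobase were 2526 ± 475 and 1540 ± 75.6 (SD, n = 3), followed by Gria3 at 477 ± 63.3, Grin1 at 342 ± 37.7, Gria4 at 229 ± 59.2, Grin2b at 158 ± 9.35, Grin2a at 81.5 ± 14.6 and Grin3a at 47.2 ± 5.60. The ranges of neighbours in this order did not overlap, down to Grin2d (0.512 ± 0.774) and Grin2c (0.0702 ± 0.122), whose ranges did. The first places rest on the length used: per kilobase of coding sequence, a scale chosen after seeing the data, Gria2 (9042 ± 443) came before Gria1 (5610 ± 1056), and Grin2b came before Gria4. Grin1 held another place in injected young mice, where per kilobase of exon the controls gave Gria1 at 1595 ± 416, Grin1 at 1105 ± 541 and Gria2 at 676 ± 294 (n = 5), with overlapping ranges between these neighbours. In the knockdown controls the order was again Gria1 (13.2 ± 3.54), Grin1 (5.65 ± 1.03) and Gria2 (2.34 ± 0.709, n = 4), and these ranges did not overlap. These orders rest on the length too. Per kilobase of coding sequence the overexpression controls gave Gria2 at 3965, Grin1 at 3809 and Gria1 at 3542. In the knockdown controls Gria1 (21.3 to 40.1) and Grin1 (14.6 to 22.9) then overlapped.

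In the knockdown experiment, which asked how lowering Ftl1 in aged mice changes neuronal transcripts, Gria1 and the NMDA subunit genes Grin1, Grin2a and Grin2b fell in the libraries labelled Ftl1 KD, and Gria2 did not pass the test. Of the 10 genes, 5 reached a mean normalized count of 10 and were tested, and 4 of these 5 passed limma, all lower. Over all 1460 genes tested, 24.2% were called, 13.7% lower and 10.5% higher. edgeR and DESeq2 on the recovered reads called the same number of subunit genes, with 28.8% and 23.8% of all genes called. The median log2 fold change of the 5 genes was -1.24, and that of all genes tested was -0.01. Since RNA came from sorted populations, fewer nuclei of a type and less RNA per nucleus cannot be told apart. By western blot, the paper reported more NR2A and AMPA receptor protein after knockdown and less after overexpression. Nuclear RNA is a different measure from these protein levels.

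**Figure D1:**
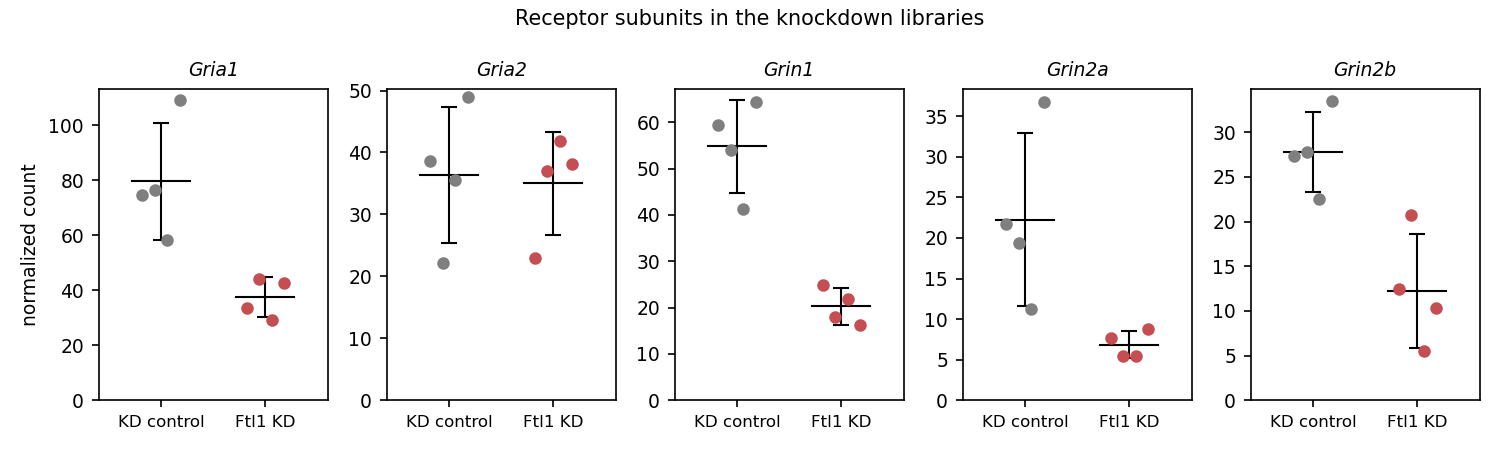
Normalized counts of the 5 tested subunit genes in the knockdown experiment, on linear axes from 0. Grey points are the 4 control libraries and red points the 4 libraries labelled Ftl1 KD, with the mean (line) and SD (bar). For Gria1, Grin1, Grin2a and Grin2b every red point lies below every grey point, and for Gria2 the groups overlap.

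Grin1 encodes the subunit that every NMDA receptor needs. Its normalized counts were 59.5, 54.1, 41.2 and 64.4 in control libraries 1, 2, 3 and 5, and 24.9, 18.0, 21.9 and 16.2 in libraries 1, 3, 4 and 5 labelled Ftl1 KD. The groups did not overlap, which held for 11.9% of all tested genes in this direction and for 23.8% in either. The mean fell from 54.8 ± 9.98 to 20.2 ± 3.92 (SD, n = 4 per group), and the log2 fold change was -1.39 (SE 0.27, limma adjusted p = 0.000541). Behind these values stood 22 to 154 reads per control library and 11 to 26 per library labelled Ftl1 KD. Grin1 shares 1307 exonic bases with the antisense gene Grin1os, and sense and antisense reads cannot be told apart here.

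Gria1 encodes GluA1, a subunit that is inserted into synapses during potentiation. Control libraries 1, 2, 3 and 5 had normalized counts of 74.6, 76.2, 58.0 and 109, and libraries 1, 3, 4 and 5 labelled Ftl1 KD had 33.6, 44.2, 29.1 and 42.6. Every library labelled Ftl1 KD lay below the lowest control. The mean fell from 79.5 ± 21.4 to 37.4 ± 7.21 (n = 4 each), a log2 fold change of -1.05 (SE 0.25, limma adjusted p = 0.00319).

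Grin2a and Grin2b encode the GluN2 subunits of forebrain NMDA receptors. Grin2a had normalized counts of 21.7, 19.4, 11.2 and 36.8 in the controls and of 7.67, 5.41, 5.47 and 8.82 in libraries 1, 3, 4 and 5 labelled Ftl1 KD. Grin2b had 27.4, 27.8, 22.5 and 33.4 in the controls and 12.5, 20.7, 5.47 and 10.3 in the labelled libraries. Neither gene overlapped between groups, and library 3 labelled Ftl1 KD came closest to the controls for Grin2b. For Grin2a the log2 fold change was -1.48 (SE 0.40, limma adjusted p = 0.00832), and for Grin2b it was -1.24 (SE 0.35, limma adjusted p = 0.0108). The counts were small, 3 to 88 reads a library for Grin2a and 3 to 80 for Grin2b. Grin2a passed the limit on the mean through its controls, since its labelled libraries averaged 6.84 ± 1.69, and without that limit it was called as well (limma adjusted p = 0.0180). Without control library 5, Grin2a no longer passed (log2 fold change -1.21, limma adjusted p = 0.0750). Without control library 2 and library 4 labelled Ftl1 KD, neither Grin2a (-1.42, limma adjusted p = 0.0503) nor Grin2b (-0.93, limma adjusted p = 0.0891) passed.

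Gria2 encodes GluA2, the subunit that limits calcium entry. Its normalized counts were 38.7, 22.2, 35.6 and 48.9 in control libraries 1, 2, 3 and 5 and 23.0, 37.0, 41.9 and 38.2 in libraries 1, 3, 4 and 5 labelled Ftl1 KD. The ranges overlapped almost throughout, with the lowest values in control library 2 and in library 1 labelled Ftl1 KD. The means were 36.3 ± 11.02 and 35.0 ± 8.27 (n = 4 each), and the log2 fold change was -0.03 (SE 0.28, 95% interval -0.61 to 0.55, limma adjusted p = 0.946). Libraries held 19 to 117 Gria2 reads, and the interval leaves room for a moderate change either way.

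The other 5 subunit genes were too rare to be tested at this depth. Gria3 had 1 to 8 reads a library and Gria4 0 to 8, Grin3a had 0 to 10, and Grin2c had 2 reads over all 8 libraries. Grin2d had 0 reads in each, which allows up to 3 reads a library, at most 8.37 to 61.3 CPM (counts scaled to a common library total). Changes of these genes were not detectable at this depth.

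Other transcripts moved with the same labels. Of 4 nuclear RNAs all were tested and all fell, with log2 fold changes of -1.87 for Malat1, -1.59 for Meg3, -1.80 for Snhg11 and -2.45 for Miat (limma adjusted p at most 0.000541), and their summed normalized counts were 611 to 1221 in controls and 209 to 314 in the labelled libraries. Gad1, which marks inhibitory neurons, rose with a log2 fold change of 1.49 (limma adjusted p = 0.00380), and the 10 interneuron markers summed to 63.1 to 106 in controls and 133 to 169 in the labelled libraries, where 1 of them was at 0 throughout. Slc1a3, a glutamate transporter of astrocytes, rose by 2.05 on the log2 scale (limma adjusted p = 0.000541) and was 1 of 2 astrocyte markers tested. The 6 astrocyte markers summed to 22.5 to 53.8 in controls and 46.0 to 67.6 in the labelled libraries. The myelin gene Mbp fell, with a log2 fold change of -1.87 (limma adjusted p = 0.000433), and the 6 oligodendrocyte markers summed to 34.3 to 67.4 and 7.35 to 17.1. The 4 markers of oligodendrocyte precursors summed to 1.25 to 14.98 (median 8.01) in controls and 16.3 to 27.3 in the labelled libraries. Olig1, the 1 tested, had a log2 fold change of 1.40 (limma adjusted p = 0.0524). It reached the limit on the mean through the labelled libraries, and no value without that limit is given. Slc1a3, Miat and Mbp had means below 10 in the group where they were low, and without the limit on the mean they were called as well (limma adjusted p at most 0.000191). C1ql2, the 1 dentate granule marker tested, fell with a log2 fold change of -1.49, and the 6 markers summed to 35.6 to 84.3 in controls and 14.7 to 30.7 in the labelled libraries. Of 3 CA1 markers tested Fibcd1 fell (-1.47), Wfs1 had -0.39 and Mpped1 0.74, and the sums of the 5 CA1 markers overlapped, at 52.4 to 95.3 and 35.5 to 70.5. Of 3 neuron markers tested the vesicular glutamate transporter Slc17a7 fell (-1.35), while Syt1 had -0.37 (limma adjusted p = 0.248) and Snap25 0.31 (limma adjusted p = 0.531). The part of these differences in the receptor result was not tested.

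In the overexpression experiment, which asked what raising Ftl1 in young neurons does to transcripts, none of the 10 subunit genes passed. All 10 were tested, and 0% of the 14099 genes were called by limma, with 1023 genes (7.26%) and 1 of the 10 subunit genes at an unadjusted p of at most 0.05. The quasi-likelihood test of edgeR called 0 genes and DESeq2 called 0.716% of genes, none of them a subunit gene. Estimates were higher in the libraries labelled Ftl1 OE for 7 subunit genes and lower for 3, with Gria2, Gria3 and Grin2d turning lower under at least 1 other scaling, pseudocount or tool, and the median log2 fold change was 0.17 against 0.10 for all genes. The groups overlapped for all 10, as they did for all but 0.582% of genes (0.411% lower and 0.17% higher in the libraries labelled Ftl1 OE).

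**Figure D2:**
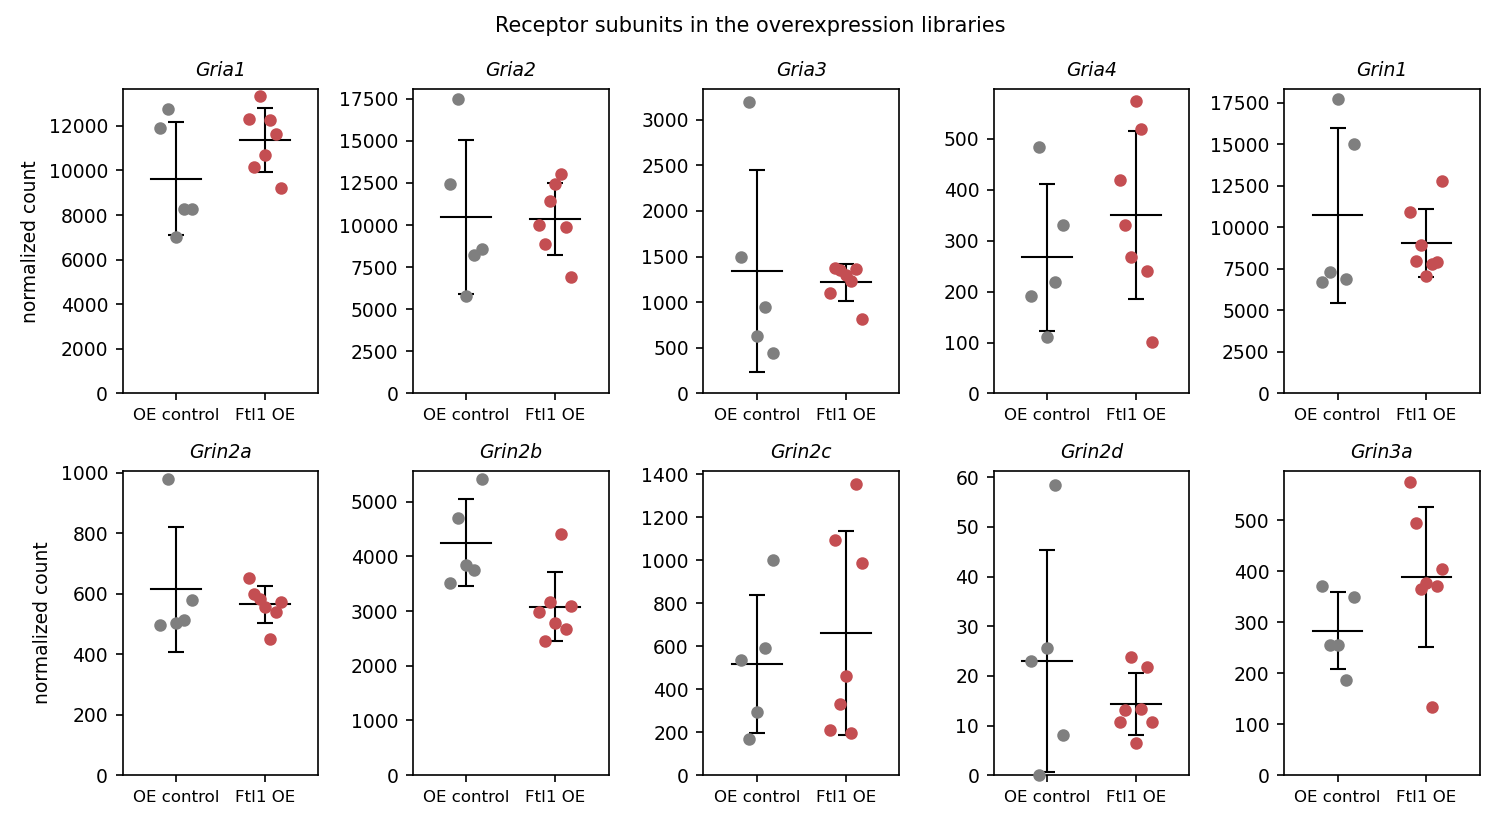
Normalized counts of the 10 subunit genes in the overexpression experiment, on linear axes from 0. Grey points are the 5 control libraries and red points the 7 libraries labelled Ftl1 OE, with the mean (line) and SD (bar). The groups overlap for every gene, and for Grin2b 6 of the 7 red points lie below all grey points.

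Grin2b gave the smallest p of the 10. Its normalized counts were 3523, 4709, 3838, 3753 and 5419 in control libraries 9901, 9904, 9905, 9925 and 9926. The 7 libraries labelled Ftl1 OE ranged from 2450 over a median of 2992 to 4408. All but library 9918, the highest of them, lay below the lowest control. The means were 4248 ± 794 (SD, n = 5) and 3083 ± 635 (n = 7), with a log2 fold change of -0.47 (SE 0.18, 95% interval -0.85 to -0.08) and a limma adjusted p of 0.592 (unadjusted 0.0197). The estimate stayed between -0.56 and -0.37 when any 1 library was left out. The 5 microglia markers summed to 1037 to 2362 normalized counts in controls and 426 to 1298 in the labelled libraries, and their part in the Grin2b values was not tested.

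Grin1 was uneven among the controls, as were Malat1, Snap25 and Slc17a7. Its normalized counts were 6686, 7291, 17726, 6880 and 15014 in control libraries 9901, 9904, 9905, 9925 and 9926, and 7097, 7962 and 12823 as the lowest, median and highest of the libraries labelled Ftl1 OE. Libraries 9905 and 9926 set the control mean of 10719 ± 5251, and the labelled libraries averaged 9061 ± 2062. The log2 fold change was -0.14 (SE 0.27, limma adjusted p = 0.896), and without these 2 controls, a choice made after seeing the data, it was 0.35 (limma adjusted p = 0.839).

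The AMPA subunit genes had overlapping groups. Gria1 averaged 9638 ± 2517 in controls and 11370 ± 1424 in libraries labelled Ftl1 OE (log2 fold change 0.27, SE 0.19, limma adjusted p = 0.734). Gria2 averaged 10503 ± 4575 and 10367 ± 2124, with a log2 fold change of 0.06 that became -0.26 without controls 9905 and 9926. Control library 9904 was the highest of the controls for all 4 AMPA genes, with 17497 for Gria2 and 3188 for Gria3. Gria3 and Gria4 had log2 fold changes of 0.20 (SE 0.37) and 0.38 (SE 0.46), and the former became -0.46 without controls 9905 and 9926.

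Among the other NMDA subunit genes, Grin2a averaged 615 ± 206 in controls and 565 ± 62.1 in libraries labelled Ftl1 OE, and its log2 fold change was -0.08 (SE 0.22, 95% interval -0.55 to 0.40, limma adjusted p = 0.936). Its highest value was 979 in control library 9904. Grin3a, which encodes a subunit that lowers calcium entry, averaged 284 ± 75.8 and 389 ± 137 (log2 fold change 0.39, SE 0.35, limma adjusted p = 0.779), and 4 of the 7 labelled libraries lay above every control. Grin2d had 0 to 53 reads a library and a log2 fold change of 0.15 with an SE of 1.00.

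Grin2c, best known from the cerebellum and also transcribed in astrocytes, was spread widely. It ranged from 168 over a median of 534 to 1000 normalized counts in controls and from 194 over 462 to 1356 in libraries labelled Ftl1 OE, with a log2 fold change of 0.23 (SE 0.54, limma adjusted p = 0.916). Here 137 to 1807 reads a library were from Grin2c, against 0, 1 and 0 reads in the young uninjected libraries. Slc1a3 of astrocytes had 731 to 13857 reads a library in the overexpression and 346, 575 and 436 reads in the young uninjected libraries. The 6 astrocyte markers summed to 5489 to 24367 normalized counts in overexpression controls and 8708 to 38296 in the labelled libraries. None was at 0 in every library of a group, and the part of these transcripts in the Grin2c values was not tested.

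In the aging experiment, which asked how neuronal transcripts differ with age, none of the 9 subunit genes tested passed. limma called 0% of 13712 genes, with 1089 (7.94%) and 0 of the 9 subunit genes at an unadjusted p of at most 0.05. edgeR called 0 genes, and DESeq2 called 138 (1.01%), none of them a subunit gene. All 4 AMPA genes had lower estimates in aged nuclei, with a median log2 fold change of -0.20 against -0.03 for all genes, and 4 of the 5 NMDA genes tested had higher ones, the exception being Grin2a, whose estimate turned higher under median centring, edgeR and DESeq2. Of the higher ones, Grin2c reached the limit on the mean through aged library 3 alone. Groups of 3 and 2 libraries did not overlap for 3 of the 9 genes, Grin2c among them, and for 24.7% of all genes.

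**Figure D3:**
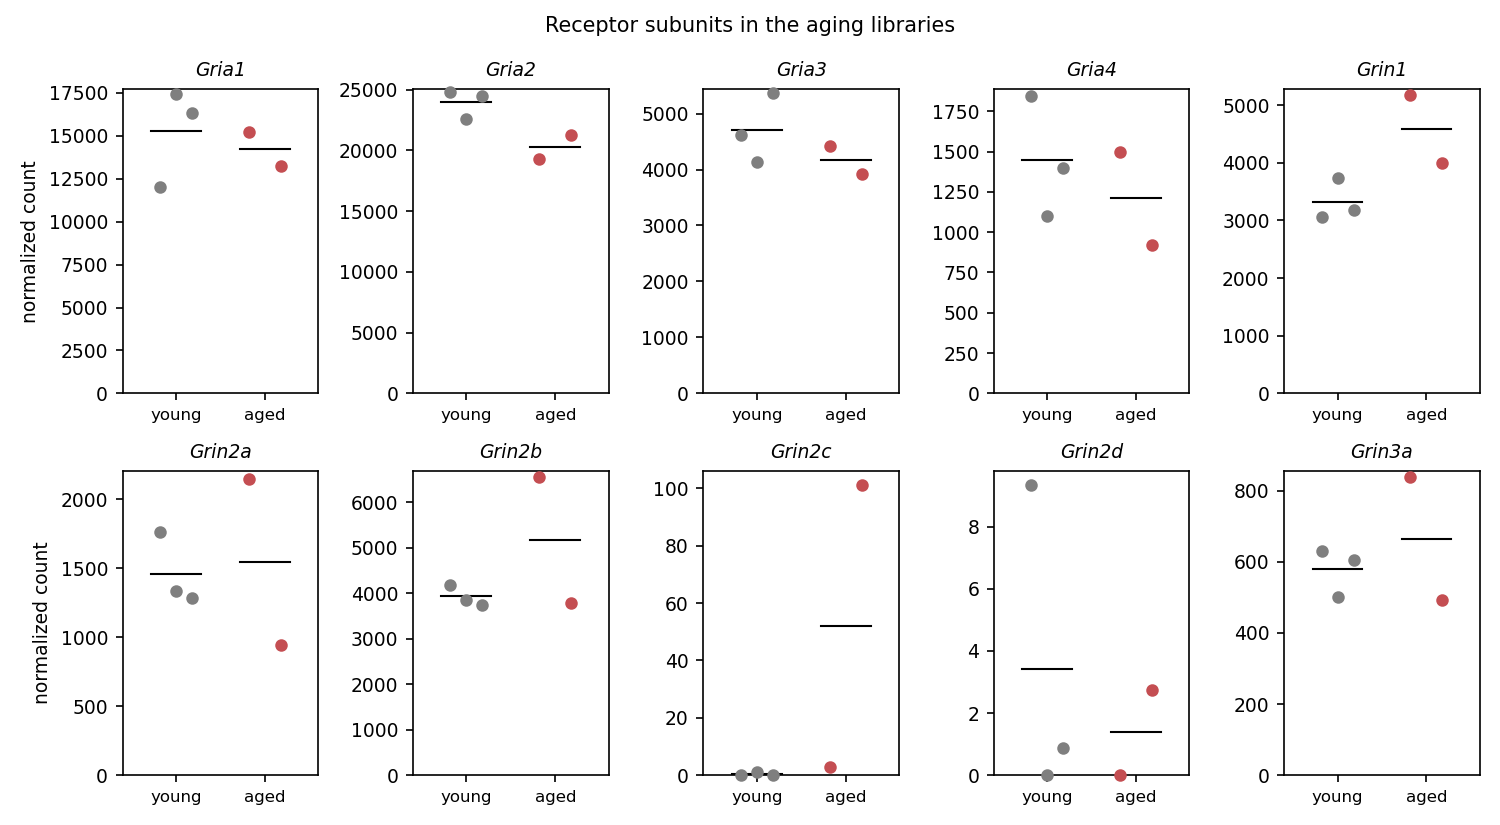
Normalized counts of the 10 subunit genes in the aging experiment, on linear axes from 0. Grey points are the 3 young and red points the 2 aged libraries, and lines are means. Both aged points lie below all young points for Gria2 and above them for Grin1 and Grin2c, where aged library 3 stands at 101.1.

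Gria2 had normalized counts of 24773, 22606 and 24475 in young libraries 1, 2 and 3 and of 19303 and 21274 in aged libraries 2 and 3. The aged values were below all young ones, with a log2 fold change of -0.24 (SE 0.32, limma adjusted p = 0.864). Grin1 had 3053, 3737 and 3173 in young and 5174 and 3998 in aged libraries. The aged values were above all young ones, with a log2 fold change of 0.46 (SE 0.27, 95% interval -0.12 to 1.04, limma adjusted p = 0.675) that became 0.27 without aged library 2.

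Grin2a and Grin2b rested on aged library 2. Grin2b had 4191, 3853 and 3746 in young libraries, 6554 in aged library 2 and 3793 in aged library 3. Grin2a had 1762, 1337 and 1283 in young libraries, 2147 in aged library 2 and 941 in aged library 3. The aged libraries thus lay on both sides of the young range for Grin2a. The log2 fold changes were 0.34 (SE 0.29) for Grin2b and -0.02 (SE 0.35) for Grin2a, with limma adjusted p of 0.779 and 0.987, and without aged library 2 that of Grin2b was -0.05.

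Grin2c was detected in aged library 3 with 110 reads, while aged library 2 held 3 reads and the young libraries 0, 1 and 0. Its log2 fold change of 3.98 (SE 2.47, limma adjusted p = 0.689) rests on that library, and it was 1.64 without it. Slc1a3 was at 369 reads in aged library 3 and at 340 in aged library 2. Gria1, Gria3, Gria4 and Grin3a overlapped between young and aged libraries, with log2 fold changes of -0.08, -0.17, -0.27 and 0.16. Grin2d had 0 to 9 reads a library and was not tested.

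**Figure D4:**
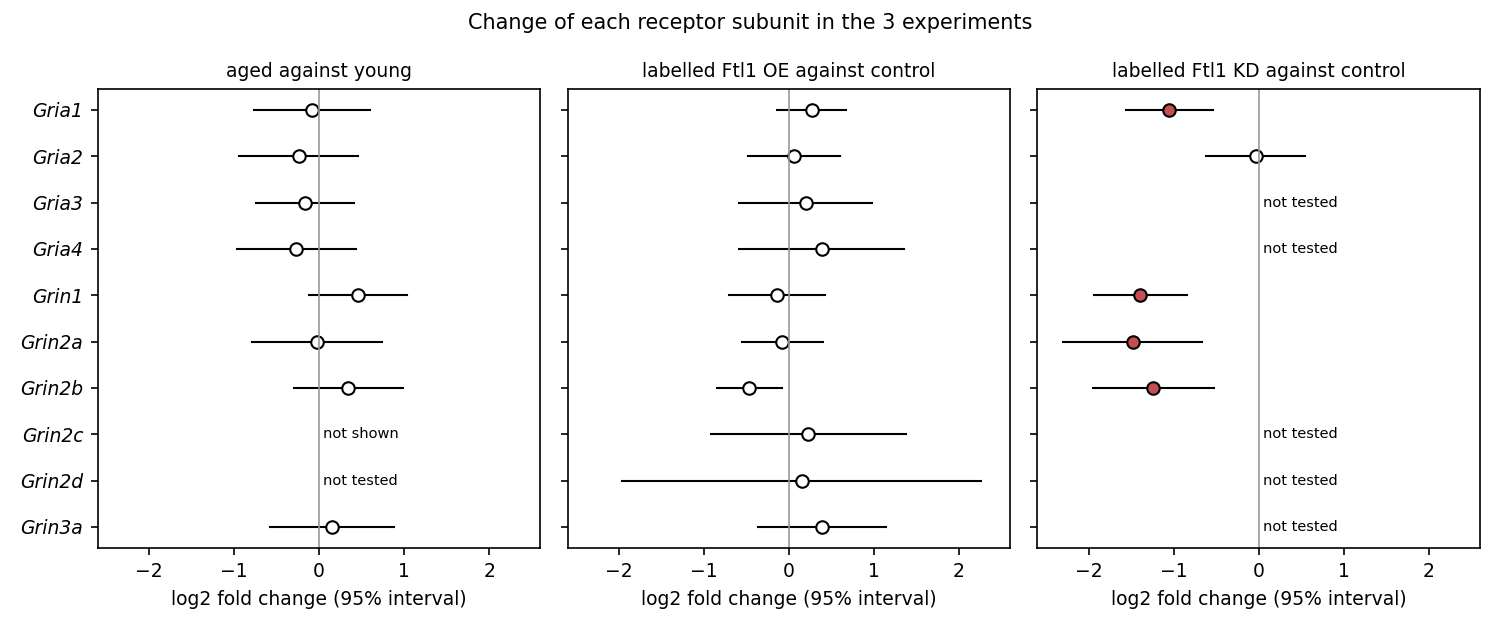
Log2 fold change of each subunit gene in each experiment from limma, with its 95% interval (line). Filled points passed the threshold and open points did not. Only Gria1, Grin1, Grin2a and Grin2b in the knockdown experiment are filled, and Grin2c in aging, whose interval of -1.40 to 9.36 exceeds the axis, is not shown.

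Ratios of subunit reads within a library do not depend on scaling between libraries. They were set for 8 pairs of genes and tested by exact two-sided permutation of the libraries. A ratio of counts also depends on gene length, so each is compared between libraries only.

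In the knockdown experiment Gria1 outnumbered Gria2 in every control library, and the ratio was lower in each library labelled Ftl1 KD. It was 1.93, 3.44, 1.63 and 2.23 in control libraries 1, 2, 3 and 5, and 1.46, 1.20, 0.696 and 1.12 in libraries 1, 3, 4 and 5 labelled Ftl1 KD. The groups did not overlap, and the mean log2 ratio was lower by -1.04 in the labelled libraries (exact permutation p = 0.0286, the smallest that 4 against 4 libraries allow, and 0.0714 adjusted over 5 ratios). Gria1 made up 62.0% of the reads of both genes in control library 3 (Wilson 95% interval 48.2 to 74.1%) and 41.0% (27.1 to 56.6%) in library 4 labelled Ftl1 KD. These intervals cover counting error only.

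The ratio of Gria2 to Grin1 moved the other way. It was 0.651, 0.410, 0.864 and 0.760 in the controls and 0.923, 2.05, 1.92 and 2.36 in libraries 1, 3, 4 and 5 labelled Ftl1 KD. Every labelled library lay above every control, by 0.923 against 0.864 for the nearest pair. The mean log2 ratio was higher by 1.40 (exact permutation p = 0.0286, adjusted 0.0714). Neither ratio therefore passed after adjustment, in a design that could not give a smaller p.

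The NMDA subunit genes kept overlapping ratios to each other in the knockdown experiment. Grin2a to Grin2b was 0.50 to 1.10 in controls and 0.261 to 1.00 in libraries labelled Ftl1 KD (log2 difference -0.29, exact permutation p = 0.629). Grin2a to Grin1 was 0.273 to 0.571 and 0.250 to 0.545 (exact permutation p = 0.571), and Grin2b to Grin1 was 0.460 to 0.545 and 0.250 to 1.15 (exact permutation p = 0.714). All 3 were adjusted to 0.714.

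**Figure D5:**
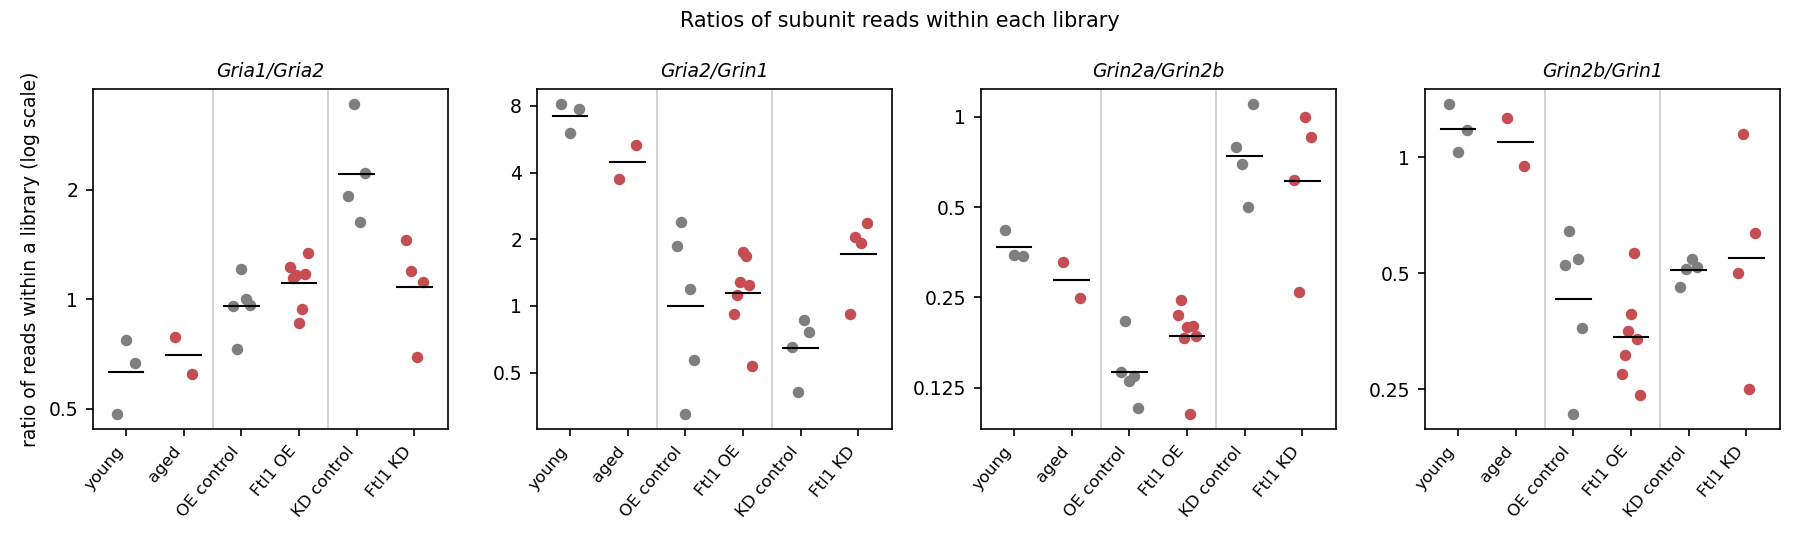
Ratio of the reads of 2 subunit genes within each library, on a log scale, for the 6 groups of the 3 experiments. Grey points are young or control libraries, red points are aged libraries or those labelled Ftl1 OE or Ftl1 KD, and lines are geometric means. In the knockdown experiment Gria1/Gria2 is 1.63 to 3.44 in controls and 0.696 to 1.46 in libraries labelled Ftl1 KD, and Gria2/Grin1 is 0.410 to 0.864 and 0.923 to 2.36.

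In the aging experiment 2 of the 8 ratios did not overlap. Groups of this size also did not overlap for 24.7% of all tested genes in either direction, a share close to that of the ratios. Grin2a to Grin2b was 0.420, 0.347 and 0.343 in young and 0.328 and 0.248 in aged libraries, a log2 difference of -0.37 that became -0.17 without aged library 3 and -0.57 without aged library 2. Gria2 to Grin1 was 8.11, 6.05 and 7.71 in young and 3.73 and 5.32 in aged libraries, a log2 difference of -0.70 that became -0.44 without aged library 2. Both gave an exact permutation p of 0.1, the smallest that 3 against 2 libraries allow, and an adjusted p of 0.4. This design cannot reach a p of 0.05.

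In the overexpression experiment all 8 ratios overlapped between groups. Grin2a to Grin2b was 0.141, 0.208, 0.131, 0.137 and 0.107 in control libraries 9901, 9904, 9905, 9925 and 9926, and 0.102, 0.200 and 0.245 as the lowest, median and highest of the libraries labelled Ftl1 OE. Library 9918 was the lowest of all 12, and the other 6 labelled libraries lay above every control except 9904. The log2 difference was 0.39 (exact permutation p = 0.107, adjusted 0.537). Gria2 to Grin1 ran from 0.327 in control library 9905 to 2.40 in control library 9904, and from 0.538 to 1.75 in the labelled libraries (log2 difference 0.20, exact permutation p = 0.716, adjusted 0.818). In both experiments with mice of 3 months, uninjected libraries had Gria2 to Grin1 ratios of 6.05 to 8.11 and injected controls 0.327 to 2.40. Injection and experiment cannot be told apart in this contrast, which was not tested.

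Receptor partners were followed by lists. Of 14 AMPA auxiliary subunits, which traffic and tune the channels, 2 were tested in the knockdown experiment, where Shisa7 fell (log2 fold change -1.45, SE 0.54, limma adjusted p = 0.0487) and Cnih3 had 0.55 (limma adjusted p = 0.333). Of 7 metabotropic glutamate receptor genes 3 were tested and Grm7 fell (log2 fold change -1.36, SE 0.44, limma adjusted p = 0.0253), and of 3 editing genes the 1 tested, Adar, fell (-1.17, SE 0.42, limma adjusted p = 0.0409). None of 2 tested anchoring and trafficking genes passed, with Nsf at -0.42 and Dlg2 at 0.20, and none of 9 kainate and delta receptor genes was tested. In all, limma called 3 of the 8 partner genes tested, beside 24.2% of all genes.

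In aging limma and edgeR called 0 of the 42 genes of these lists that were tested, with 5 and 4 at an unadjusted p of at most 0.05, and DESeq2 called 1. Over all genes, limma had 7.94% at that unadjusted p and DESeq2 called 1.01%. The list gene called by DESeq2 was Gsg1l, which the paper lists among genes increased with age. This auxiliary subunit slows the recovery of AMPA receptors from desensitization and was named after its values were seen. Its mean normalized count was 312 in young and 939 in aged libraries (log2 fold change 1.52, limma adjusted p = 0.441), and DESeq2 gave an adjusted p of 0.0107. Cacng5, another auxiliary subunit named in this way, went from 556 to 190 (log2 fold change -1.60, limma adjusted p = 0.441, DESeq2 adjusted p = 0.109). In overexpression limma, edgeR and DESeq2 each called 0 of 41 genes, with 2 at an unadjusted p of at most 0.05 by each. Over all genes there, limma had 7.26% at that unadjusted p. Of 13 auxiliary subunits tested in aging, 10 had higher estimates, and the most abundant were Shisa7 (log2 fold change 0.18) and Cnih3 (0.50). Grm5 and Grm7, the most abundant metabotropic receptors, had -0.25 and -0.22, Nsf and Dlg2 had -0.12 and -0.35, Grik2 and Grik4 had -0.63 and 0.39, and Adar and Adarb2 had 0.30 and 0.34. In overexpression the most abundant auxiliary subunits were Cnih2 (-0.30) and Cnih3 (-0.20), Grm2 and Grm7 had 0.01 and 0.12, Nsf and Dlg3 had 0.11 and 0.15, Grik5 and Grik4 had -0.16 and -0.05, and Adar and Adarb2 had 0.62 and 0.61.

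Over the 12 overexpression libraries, the genes whose log2 normalized counts followed those of the subunits most closely were found among 14099 genes. For Gria2 they were the metabotropic receptor gene Grm5 (Pearson r = 0.973) and the kinase gene Rock1 (0.962), and for Grin1 they were Sppl2b (0.983) and B4galnt1 (0.977). For Gria1 they were Thsd4 (0.948) and AI593442 (0.948), for Grin2b Epha5 (0.954) and Samd5 (0.936), and for Grin2a Adgrg6 (0.836) and Fam206a (0.829). Spearman's rho for these pairs was 0.538 to 0.958. The libraries share depth and quality differences, which the outlying controls widen, and the highest of so many correlations are a description only.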

How the data were processed

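Processed RNA-seq tables of 25 libraries in 3 experiments were analysed. The authors aligned reads to mm10 with STAR, quantified genes with RSEM and deposited DESeq2-normalized counts (a signal per gene and library). The annotation release and strand setting are not given in the sources used here; the sample records describe strand-specific libraries, the paper a modified Smart-seq2 protocol. Columns of the authors' own comparison (log2 fold changes with their errors, a test statistic as a score, and p-values) were deposited too and were not used. Whole reads were recovered for 100% of values (within 0.1 of a whole number), and 0 library columns were left out.

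Groups were compared with limma 3.58.1 in R 4.3.3 on log2(normalized count + 1), with a variance trend and no covariate, for genes with a mean of at least 10. Fold changes on this scale understate changes of low genes. p-values were Benjamini-Hochberg adjusted over all genes tested, with a threshold of 0.05 (in aging also a log2 fold change of 0.5). limma intervals are 95%. Ratios of reads had 0.5 reads added where a library was at 0. Levels per kilobase used exon unions of GENCODE M21. Within groups no pair of libraries agreed within counting noise (chi-square per degree of freedom at least 1.40). The models were tested on simulated data. Alternatives were other pseudocounts and filters, TMM scaling, median centring, edgeR 4.0.16 and DESeq2 1.42.0 on the recovered reads, leaving out each library, and a replicate block. Of other lists, genes past the threshold are named (at most 4 a list), or the 2 most abundant. The members and lists were chosen with earlier results of these data known. Plots used Python 3.11.15 with matplotlib 3.10.9. A further marker gene and a further subunit sequence are not reported here.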

Additional observations from a re-analysis of the deposited data

Results flagged for a closer look

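Of 64 groups of subunit values or ratios examined for a library far from the rest, 5 held one, where chance gives about 1 in 20 groups. Grin2a reached a normalized count of 979 (796 reads) in OE control 9904, with the other controls at 497 to 581. Grin2b reached 4408 in Ftl1 OE 9918, with the other libraries so labelled at 2450 to 3170, and the Grin2a to Grin2b ratio of this library was 0.102, with the others at 0.184 to 0.245. The flags of library 9918 share its Grin2b value. Grin2c stood at 0.944 normalized counts in KD control 1 and at 0.959 in Ftl1 KD 1, which is 1 read each, with all other libraries at 0. A single read among libraries at 0 is always flagged by this rule.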

How the results depend on the processing

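The cause of the changes given here was not tested unless stated. In the knockdown experiment 4 subunit genes were called under every pseudocount, scaling and tool tried. The number was 3 to 4 with 1 library left out, and 0 with a mean of at least 100, which no subunit gene reached. Calls over all genes were 354, then 18 with a mean of at least 100 (fewer genes tested) and 235 to 439 with 1 library left out, the lowest without control library 5. In the knockdown and aging experiments, deviations from the group mean had r of -0.05 to 0.02 between libraries of the same number. In aging the deviations of the aged libraries mirror each other, so r cannot show a pair there. A pairing by number is therefore not excluded. With the number as a replicate block, on the libraries whose number occurs in both groups, 2 subunit genes and 188 genes were called, and 2 and 205 on the same libraries without the block, where fewer libraries entered. With the block Grin1 and Grin2a were called, while Gria1 had -0.95 (limma adjusted p = 0.0537) and Grin2b -0.93 (limma adjusted p = 0.116). Without it Gria1 and Grin1 were called, while Grin2a had -1.42 (limma adjusted p = 0.0503) and Grin2b -0.93 (limma adjusted p = 0.0891). The Gria1/Gria2 log2 ratio of the knockdown experiment was -0.62 with the block (exact permutation, adjusted p = 0.3125). That setting flipped signs within pairs of the same number, which are too few to reach an exact p of 0.05. Log2 fold changes over all settings were -1.52 to -1.24 for Grin1, -1.19 to -0.89 for Gria1, -1.75 to -1.13 for Grin2a and -1.52 to -0.93 for Grin2b.

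In aging and overexpression 0 subunit genes were called under each setting, and 0 ratios in any experiment. Estimates near 0 changed sign. In aging, Grin2a had 0.000516 under median centring, 0.071 with edgeR, 0.080 with DESeq2 and 0.12 with the block or the same libraries without it, and with the block Gria1/Gria2 was -0.033 and Gria4/Gria2 0.14. In overexpression, Gria2 had -0.037 under median centring and -0.019 with DESeq2, Gria3 -0.11 with edgeR and -0.14 with DESeq2, and Grin2d -0.15 with a pseudocount of 5, -0.66 with edgeR and -0.69 with DESeq2. Without controls 9905 and 9926, chosen after seeing the data, Gria2 had -0.26, Gria3 -0.46, Grin1 0.35, Gria3/Gria2 -0.20, Grin2a/Grin1 -0.52 and Gria2/Grin1 -0.61. All genes called there numbered 0 to 1 with 1 library left out, the 1 without control 9925.

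Leaving out 1 library in turn gave these ranges of log2 values. In aging they were -0.25 to 0.022 for Gria1, -0.61 to 0.084 for Gria4, -0.62 to 0.57 for Grin2a, -0.049 to 0.74 for Grin2b, -0.23 to 0.54 for Grin3a, -0.033 to 0.32 for Gria1/Gria2, -0.083 to 0.23 for Gria3/Gria2, -0.45 to 0.39 for Gria4/Gria2 and -0.32 to 0.094 for Grin2b/Grin1. In overexpression they were -0.13 to 0.27 for Gria2, -0.11 to 0.60 for Gria3, -0.28 to 0.076 for Grin1, -0.14 to 0.11 for Grin2a, -0.11 to 0.53 for Grin2c, -0.77 to 0.71 for Grin2d, -0.13 to 0.33 for Gria3/Gria2, -0.21 to 0.35 for Grin2a/Grin1 and -0.21 to 0.51 for Gria2/Grin1. In the knockdown experiment they were -0.24 to 0.15 for Gria2, -0.52 to 0.12 for Grin2a/Grin2b, -0.41 to 0.025 for Grin2a/Grin1 and -0.24 to 0.49 for Grin2b/Grin1. Depth limits the knockdown experiment, where a library held 61 to 725 reads of the 10 genes.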
